A study of Mus musculus with 6 samples.

Results

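The nuclear lamins and 7 proteins of the nuclear envelope that bind or neighbour them were examined in mouse lymphoid cells expressing wild-type (WT) or mutant RPL10, a protein of the large ribosomal subunit. The 10 genes, Lmna, Lmnb1, Lmnb2, Lbr, Emd, Tmpo, Banf1, Sun1, Sun2 and Syne1, were selected by symbol among 41255 listed genes. They were chosen on their membership of this family, with the R98S and WT values of these same libraries in view. Their difference between genotypes is therefore given as a description, with no p-value, and the number called in a fit across all genes is given beside the background. All 10 passed the filter on low values, which asked for a mean of 10 or more normalized reads across the 6 libraries.

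The libraries came from Ba/F3, an established lymphoid line of the mouse whose growth needs interleukin-3. By retroviral transfer all cultures received a human RPL10 cDNA, either WT or carrying serine for arginine at residue 98 (R98S, found in T-cell acute lymphoblastic leukemia), and in all of them endogenous mouse Rpl10 was knocked down with an shRNA. Each of the 6 cultures was monoclonal, so a clone is 1 retroviral integration history as well as 1 genotype, and each gave 1 mRNA library after a 5 min exposure to 100 µg/ml cycloheximide. The WT clones were 28, 29 and 36 and the R98S clones were 11, 13 and 35.

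The nuclear lamina is a meshwork of intermediate filaments beneath the inner nuclear membrane. B-type lamins, encoded by Lmnb1 and Lmnb2, are made in nearly all cells and stay attached to the membrane by a lipid anchor. Lmna encodes lamins A and C by alternative splicing, and their level rises in many cell types as these differentiate and in stiff tissues. Lamins are held by membrane proteins such as the lamin B receptor, emerin and LAP2, and are linked to the cytoskeleton by SUN proteins and nesprins. Lymphoid progenitors are known for B-type lamins and LBR in plenty and for little lamin A.

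Between 21786776 and 24204991 reads were assigned to genes per library, and a floor of 3 reads corresponded to a normalized count of 2.78 to 3.22, far below each of the 10 genes. Rpl10 itself ranged from 1883 to 3156 normalized reads with overlapping genotypes. Whether reads of the human RPL10 cDNA were counted under this mouse symbol was not tested, so these values do not measure the knockdown. Of 5 markers of the line, Il3ra, Csf2rb, Csf2rb2 and Ptprc were expressed, while Kit reached at most 1 read in any library. Their sum was 98119 to 118046 in WT and 134078 to 158696 in R98S clones, with Csf2rb and Csf2rb2 called higher and Ptprc called lower (log2 fold change −1.33, adjusted p = 0.00894, limma). Of 7 B-cell markers, only Cd79a and Cd79b had a mean of at least 10, Cd79b was called higher, and the sums were 1287 to 1400 in WT and 1635 to 1955 in R98S clones. Among 15 markers of other cells, 14 were listed and 4 had a mean of at least 10, namely Cd3d, Hba-a1, Pecam1 and Emr1, the older symbol of the macrophage marker Adgre1. The summed level of the other-cell markers was 12962 to 16991 normalized reads in WT clones and 3986 to 8283 in R98S clones, so it moved with the genotype. In WT clones most of it was Emr1 (8967 to 12409), and in R98S clones most of it was Pecam1 (3183 to 5326). Emr1 ranged from 686.8 to 2880 in R98S clones (log2 fold change −2.74 ± 0.45 SE, adjusted p = 0.00834, limma), while the macrophage receptor Csf1r had at most 7 reads. Hba-a1 was also called lower, the T-cell marker Cd3d was called higher at a low level (13.34 to 63.79 on average, adjusted p = 0.0112, limma), and Pecam1 overlapped between the genotypes. The part of these marker differences in the results below was not tested.

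Upstream sequences were taken from RefSeq on GRCm38.p6 for the members whose R98S values all lay below their WT values (Lmna, Lbr, Sun1 and Sun2, described below), to show what precedes their starts. Each line gives the 250 bases before an annotated start, 5′ to 3′ on the gene's strand. The first Lmna line stops after 216 bases, where an annotated Lmna exon begins. Capitals mark matches, on either strand, to NF-Y (CCAAT), Sp1 (GGGCGG), the CHR element of cell cycle genes (TTTGAA), the E-box (CACGTG) and AP-1 (TGACTCA or TGAGTCA).
Lmna, chr3:88503387-88503602, minus strand: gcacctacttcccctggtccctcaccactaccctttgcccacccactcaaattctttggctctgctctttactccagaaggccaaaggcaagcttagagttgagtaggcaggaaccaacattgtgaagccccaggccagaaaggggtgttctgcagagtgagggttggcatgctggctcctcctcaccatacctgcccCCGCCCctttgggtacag
Lmna, second start, chr3:88493313-88493562, minus strand: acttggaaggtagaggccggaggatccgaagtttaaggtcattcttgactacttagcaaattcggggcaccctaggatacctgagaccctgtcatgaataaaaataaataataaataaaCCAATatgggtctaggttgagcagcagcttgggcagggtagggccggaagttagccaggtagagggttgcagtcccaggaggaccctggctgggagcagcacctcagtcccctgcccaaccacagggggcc
Lbr, chr1:181842402-181842651, minus strand: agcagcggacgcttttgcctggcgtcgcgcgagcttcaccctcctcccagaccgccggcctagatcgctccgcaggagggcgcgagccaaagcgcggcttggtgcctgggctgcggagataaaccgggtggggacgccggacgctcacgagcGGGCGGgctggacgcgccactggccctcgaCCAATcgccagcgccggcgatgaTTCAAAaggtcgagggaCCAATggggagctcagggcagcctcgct
Sun1, chr5:139200387-139200636, plus strand: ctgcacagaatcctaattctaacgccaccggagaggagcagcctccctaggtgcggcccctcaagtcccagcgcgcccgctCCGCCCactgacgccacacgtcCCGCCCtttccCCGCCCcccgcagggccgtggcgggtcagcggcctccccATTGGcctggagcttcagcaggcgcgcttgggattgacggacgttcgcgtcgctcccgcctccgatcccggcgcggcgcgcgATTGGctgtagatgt
Sun2, chr15:79742537-79742786, minus strand: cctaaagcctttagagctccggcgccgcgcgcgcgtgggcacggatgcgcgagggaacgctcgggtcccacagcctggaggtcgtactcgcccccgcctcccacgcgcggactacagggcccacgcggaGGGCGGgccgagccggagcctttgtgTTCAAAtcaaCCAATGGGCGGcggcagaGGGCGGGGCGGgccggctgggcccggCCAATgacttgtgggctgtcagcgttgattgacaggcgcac

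The first Lmna window held 1 Sp1 match, which began 52 bases before the start, and the second held 1 NF-Y match, which began 131 bases before its start. Lbr held NF-Y matches at 68 and 28 bases before the start, a CHR match between them at 45, and an Sp1 match at 98. In Sun2, a CHR match at 95 stood close to an NF-Y match at 85, and 2 of its Sp1 matches shared a base, so that they appear as 1 run of capitals. The Sun1 window shown had NF-Y matches at 97 and 15, and a second Sun1 window, not printed, had 1 at 209. RefSeq windows were found for 9 of the 10 genes, with 16 windows in all, and no sequence is given for Lmnb1. NF-Y letters stood in 8 of the 16 windows and in 33.8% of the 32851 windows of all genes. Sp1 letters stood in 10 of the 16 windows and in 32.7% of all windows, and CHR letters in 3 of the 16 and in 16.0% of all. AP-1 and E-box letters were in none of these 16 windows and in 4.46% and 6.02% of all windows. A match is a run of letters only, and the GENCODE annotation places a further start of Lmna, and one of Lbr, upstream of the windows shown. Of the windows shown, that of Lbr was the one whose bases after the start were not found in a GENCODE transcript of its gene. The same held for the Tmpo windows and the second Syne1 window, which are counted but not shown. The Banf1 windows, also only counted, lay wholly or largely in annotated Banf1 exons (250 and 180 of their 250 bases).

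Lmna was the member with the widest gap between the genotypes. The gene lies on chromosome 3 (88480147 to 88509956, minus strand, GRCm38, GENCODE M21). Its normalized read count was 2663, 2573 and 2546 in WT clones 28, 29 and 36. In R98S clones 11, 13 and 35 it was 751.5, 746.1 and 690.2. The lowest WT clone was thus far above the highest R98S clone, and within each genotype the clones lay close together. Mean values of 2594 ± 61.6 for WT and 729.3 ± 34.0 for R98S (SD, n = 3 each) put R98S 71.9% lower, or 3.56-fold (log2 fold change −1.83 ± 0.10 SE on the log2(normalized count + 1) scale). The median log2 fold change of the 30 tested genes nearest to it was 0.01.

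Within a genotype, Lmna varied less between clones than most genes did. Its within-genotype SD was 0.05 on the log2 scale, against a median of 0.18 over the 9504 genes with a mean of at least 100, and 1.9% of those genes had a lower SD. The other members had within-genotype SDs of 0.14 (Emd) to 0.98 (Syne1), and 98.8% of genes varied less than Syne1.

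The B-type lamin genes showed no such gap. Lmnb1, on chromosome 18, gave 4865, 4399 and 5716 normalized reads in WT, against 4659, 4064 and 5374 in R98S. These overlapped almost throughout, with means of 4993 ± 668 and 4699 ± 656 (log2 fold change −0.09 ± 0.14 SE). Lmnb2 (chromosome 10, 80901203 to 80918245, minus strand) gave 1377, 1582 and 1768 in WT and 1442, 1195 and 1639 in R98S clones, with means of 1576 ± 196 and 1426 ± 223 (log2 fold change −0.15 ± 0.15 SE). Again the ranges overlapped.

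**Figure D1:**
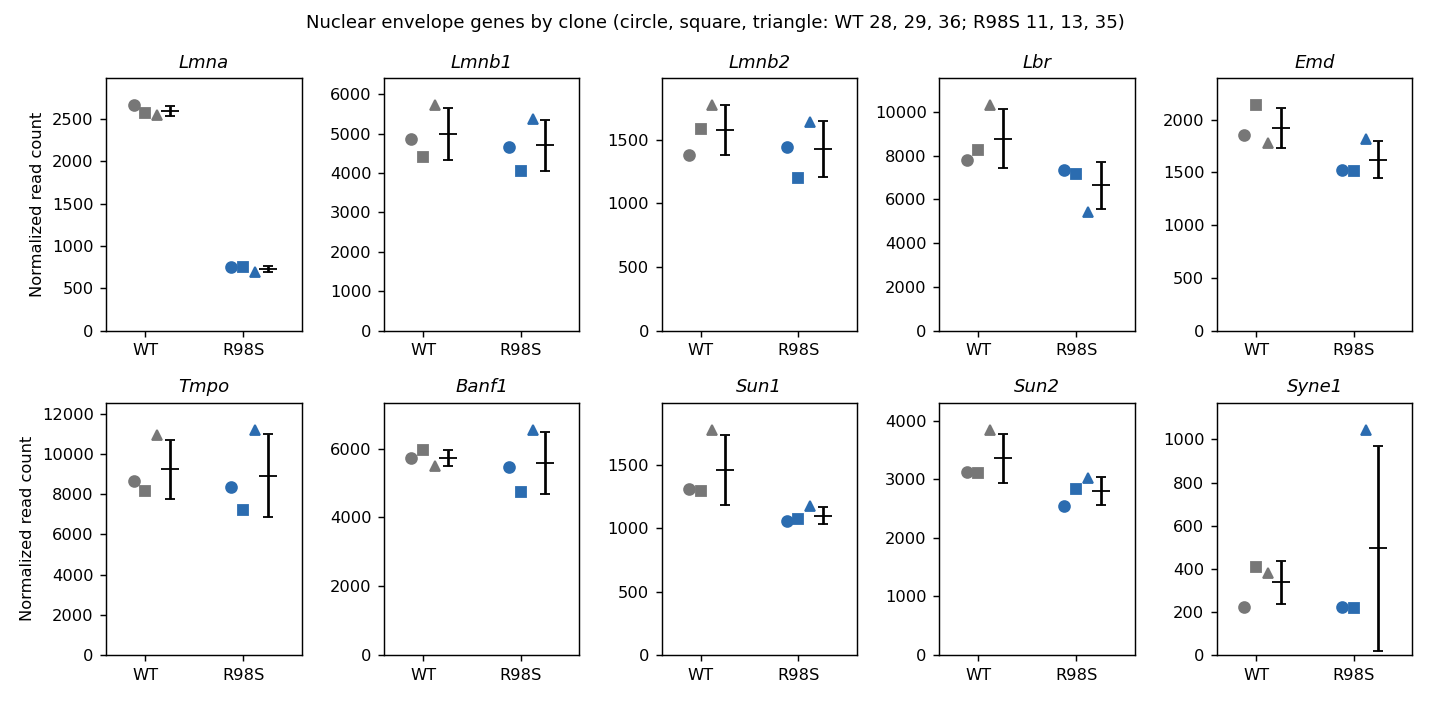
Normalized read count (linear axes from 0) of each of the 10 genes in the 3 WT (grey) and 3 R98S (blue) clones, with the mean and SD beside the points. Lmna clones sit at 2546 to 2663 in WT and 690.2 to 751.5 in R98S, Lbr, Sun1 and Sun2 are separated by narrower gaps, and the other genes overlap.

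To compare the 3 lamin genes with each other, normalized counts were divided by the length of their merged exons (5.84 kb for Lmna, 2.96 kb for Lmnb1 and 4.29 kb for Lmnb2). On this per-kilobase scale Lmna made up 18.9%, 19.2% and 15.7% of the lamin mRNA in WT clones 28, 29 and 36. In R98S clones 11, 13 and 35 its share was 6.3%, 7.2% and 5.1%. The share was 17.9% ± 1.9 in WT and 6.2% ± 1.0 in R98S (SD, n = 3 each). Lmnb1 held the most in every clone, from 64.7% to 69.5% in WT and from 77.1% to 78.4% in R98S. With coding length in place of exon length the Lmna share was 26.2% in WT and 9.7% in R98S.

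The summed level of the B-type lamins was 2053 ± 256 normalized reads per kilobase in WT and 1919 ± 273 in R98S, with overlapping clones (1854 to 2342 and 1651 to 2197). The ratio of Lmnb2 to Lmnb1 per kilobase also overlapped, at 0.196 to 0.249 in WT and 0.203 to 0.214 in R98S. The ratio of Lmna to Lmnb1 was 0.226 to 0.297 in WT and 0.065 to 0.093 in R98S. These are mRNA levels, and the counts do not separate the lamin A from the lamin C transcript.

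**Figure D2:**
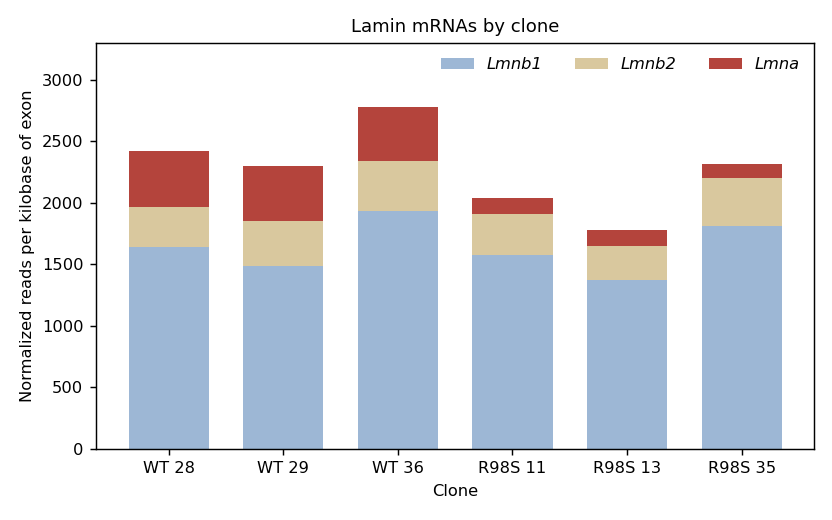
Stacked normalized reads per kilobase of merged exon for Lmnb1, Lmnb2 and Lmna in each of the 6 clones, with 1 bar per clone. The Lmna segment is 436.1 to 456.2 in the WT clones and 118.2 to 128.7 in the R98S clones, while the B-type segments overlap between the genotypes.

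Of Lbr, Emd, Tmpo and Banf1, whose products hold lamins or chromatin at the inner membrane, Lbr had non-overlapping genotypes. Lbr (chromosome 1, 181815335 to 181843046, minus strand) encodes an inner membrane protein that binds B-type lamins and heterochromatin and also carries a sterol reductase domain. It gave 7786, 8254 and 10302 normalized reads in WT, against 7334, 7182 and 5413 in R98S. All R98S clones were lower, with the nearest pair, WT 28 and R98S 11, close together. The means were 8781 ± 1338 and 6643 ± 1068 (log2 fold change −0.41 ± 0.16 SE).

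Emd (chromosome X, 74254687 to 74261548, plus strand) encodes emerin, an inner membrane protein with a LEM domain that binds BAF. Its values were 1852, 2136 and 1780 in WT and 1523, 1518 and 1821 in R98S clones (log2 fold change −0.25 ± 0.12 SE). R98S 35 lay above WT 36, so the ranges overlapped. The gene ends 9263 bases from Rpl10, the knocked-down gene, and the median log2 fold change of the 30 tested genes nearest to it was −0.08.

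Tmpo (chromosome 10, 91147571 to 91181315, minus strand) encodes the LAP2 isoforms, of which some span the inner membrane and LAP2 alpha binds lamin A inside the nucleus. It gave 8644, 8181 and 10933 in WT and 8372, 7204 and 11215 in R98S clones. The highest and the lowest of the 6 values were both from R98S clones (log2 fold change −0.06 ± 0.18 SE). The counts are per gene and do not separate the isoforms.

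Banf1 (chromosome 19, 5364638 to 5367168, minus strand) encodes BAF, a small protein that bridges DNA and LEM-domain proteins. Its values were 5712, 5962 and 5502 in WT, against 5455, 4739 and 6545 in R98S, and the R98S clones spanned the whole WT range (log2 fold change −0.05 ± 0.13 SE). Banf1 shares 428 exon bases with Eif1ad on the opposite strand, which had a mean of 3363 normalized reads. Whether the counting used the strand is not given in the sources used here, so reads from that stretch cannot be assigned with certainty.

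The LINC complex joins SUN proteins of the inner membrane to nesprins of the outer membrane. Sun1 (chromosome 5, 139200637 to 139249840, plus strand) gave 1313, 1294 and 1778 in WT, against 1056, 1072 and 1175 in R98S. The groups did not overlap, and WT 36 stood above the other WT clones (means 1462 ± 274 and 1101 ± 64.5, log2 fold change −0.39 ± 0.15 SE). Sun2 (chromosome 15, 79724070 to 79742536, minus strand) gave 3121, 3112 and 3846 in WT and 2538, 2834 and 3018 in R98S clones. Here too the groups did not overlap, with R98S 35 just under the lower WT clones (means 3360 ± 421 and 2797 ± 242, log2 fold change −0.26 ± 0.12 SE).

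Syne1 (chromosome 10, 5020917 to 5551482, minus strand) encodes nesprin-1, one of the longest proteins of the envelope, which reaches the actin cytoskeleton. It gave 221.2, 407.3 and 381.3 in WT and 224.2, 217.4 and 1045 in R98S clones. R98S 35 was far above the other 5 clones, and the fitted log2 fold change was 0.19 ± 0.57 SE with it and −0.56 without it.

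Of the 10 genes, limma called 1 (Lmna, lower), with a threshold of 0.1 on the adjusted p. Over all 11550 tested genes 23.9% were called, 13.1% lower and 10.7% higher in R98S. The genotypes did not overlap with R98S lower for 4 of the 10 genes, and for 19.2% of all tested genes. Since the genes were chosen with this contrast known, nothing is read from these counts. With DESeq2 on the recovered reads 3 of the 10 were called (Lmna, Lbr and Sun1) and 26.9% of all genes, and with edgeR 1 of the 10 and 23.8% of all genes. The log2 fold change was below 0 for 9 genes and above 0 for 1, with a median of −0.20. Over all tested genes the median was −0.01, and 50.9% were below 0. The division of the 10 genes became 6 below and 4 above without R98S 13. It was 7 and 3 without WT 36 or with the shift of neighbouring genes removed, and 10 and 0 without WT 28 or R98S 35. Under both other scalings of the libraries it was 9 and 1.

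**Figure D3:**
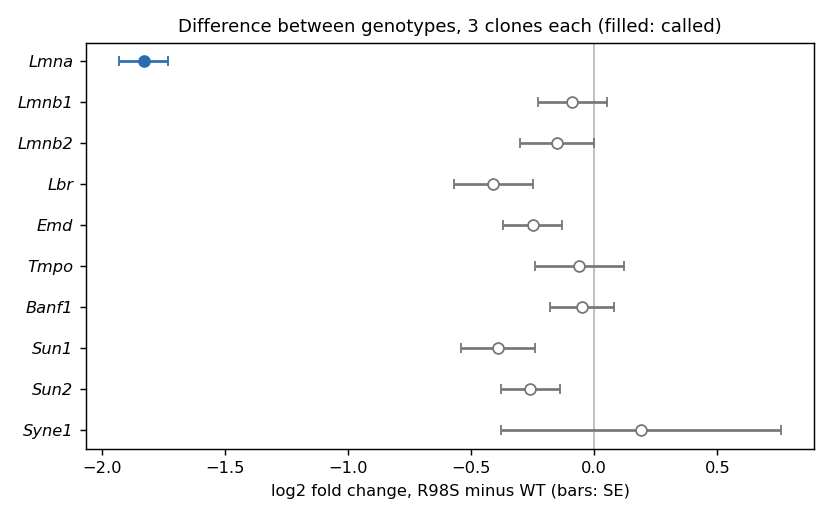
Log2 fold change of each of the 10 genes, R98S minus WT, on the log2(normalized count + 1) scale, with bars for the SE. Lmna stands at −1.83, the 9 others lie between −0.41 and 0.19, and Syne1 has the widest bar (SE 0.57).

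Levels were compared between genes per kilobase of merged exon. In WT clones Banf1 was highest at 3827 ± 154 normalized reads per kilobase, followed by Lbr (1844 ± 281) and Lmnb1 (1686 ± 226), whose clones overlapped. Tmpo (841 ± 134), Emd (764 ± 74.8) and Sun2 (620 ± 77.7) came next, each overlapping its neighbour in the order. Lmna (444 ± 10.6), Lmnb2 (368 ± 45.6), Sun1 (192 ± 36.1) and Syne1 (8.31 ± 2.49) followed with no overlap between neighbours. Lmna was thus 7th of the 10 in WT, above Lmnb2. In R98S clones it was 9th at 125 ± 5.82 normalized reads per kilobase, below Lmnb2 (333 ± 51.9) and also below Sun1 (145 ± 8.49), with no overlap between these neighbours. Lmnb1 (1586 ± 221) and Lbr (1395 ± 224) were in the opposite order in R98S, and their clones overlapped there too. With coding length in WT, Tmpo moved ahead of Lmnb1 and the rank of Lmna was 7 as before. A merged exon length overstates the length of a typical transcript for genes with many isoforms, and that of Syne1 was 40.49 kb.

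The clones of a genotype did not move as 1 block over these genes. WT 36 had the highest WT value for Lmnb1, Lmnb2, Lbr, Tmpo, Sun1 and Sun2, and the lowest for Lmna, Emd and Banf1. The same clone had the highest WT value for 20 of 20 genes of a proliferation list, with a summed level of 200396 normalized reads against 140100 in WT 28 and 145575 in WT 29. The R98S sums were 160565 to 164462, between those of the WT clones. R98S 35 had the highest R98S value for 8 of the 10 envelope genes and the lowest for Lmna and Lbr, and R98S 13 the lowest for 6. The part of proliferation in the envelope values was not tested.

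The genes most like Lmna over the 6 clones, of 9503 compared by Pearson's r of log2 values, were Lrrc8c (r = 0.9981), Apobec1 (r = 0.998) and Bsg (r = 0.9966). All 6 points share the split into genotypes, so these are descriptions of genes with a similar gap and little spread within genotypes. Lrrc8c, a subunit of volume-regulated anion channels, had means of 1450 in WT and 739.3 in R98S (log2 fold change −0.97). Apobec1, a cytidine deaminase, had means of 363.2 and 9.903 (−5.07). Bsg, the membrane glycoprotein basigin, had means of 16148 and 9072 (−0.83).

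Other genes of the nuclear envelope were listed to see how far such differences extended. Of 41 genes 37 were tested, and 1 rose and 4 fell in R98S (adjusted p under 0.1, limma), with a median log2 fold change of −0.00 over the list. That is 13.5% called, against 23.9% of all tested genes. With the libraries scaled to the same upper quartile, 2 were higher and 1 lower. Syne2, Lemd3, Sun3 and Sun5 were below the filter, so of the partners of the LINC complex Syne3, Syne4 and Spag4 were tested.

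Zmpste24 encodes the protease that trims prelamin A into mature lamin A. It rose from 2732, 2678 and 2464 in WT to 3873, 3088 and 3847 in R98S clones, with no overlap (log2 fold change 0.45 ± 0.12 SE, adjusted p = 0.0417). The 30 tested genes nearest to it had a median of 0.27, and with the shift of its neighbours removed in each library the difference was 0.13 with an adjusted p of 0.367. The call was also lost without WT 28, WT 29, R98S 11 or R98S 35, each left out alone (adjusted p from 0.106 to 0.125, limma). The other 4 genes of prelamin processing, the farnesyltransferase subunits Fnta and Fntb, the protease Rce1 and the methyltransferase Icmt, were not called. Fnta (0.20) and Fntb (0.33) also had all R98S clones above all WT clones, and the share of all tested genes with that order is not given here. With the shift of neighbouring genes removed Fnta was called, and with the libraries scaled to the same upper quartile Fntb was called.

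Syne3, which encodes nesprin-3, a link to plectin and intermediate filaments, gave 2839, 2101 and 3279 in WT and 1086, 1567 and 2298 in R98S clones (log2 fold change −0.77 ± 0.27 SE, adjusted p = 0.0912, limma). It fell, although R98S 35 lay above WT 29. Nrm, encoding nurim of the inner membrane, fell from 1010 ± 168 to 703.5 ± 143 (−0.53 ± 0.18 SE, adjusted p = 0.0869, limma). Both calls were lost with the libraries scaled to the same total, at adjusted p-values of 0.108 and 0.111. Leaving out 1 clone ended the call of Syne3 for WT 28, WT 36, R98S 11 or R98S 13 (adjusted p from 0.152 to 0.236, limma). For Nrm it did so for each clone but R98S 35 (0.13 to 0.236).

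Lpin2 and Cnep1r1 act in the lipin pathway, which controls phospholipid synthesis for nuclear membranes. Lpin2, a phosphatidate phosphatase, fell from 5114 ± 1307 to 3261 ± 802 (−0.65 ± 0.22 SE, adjusted p = 0.0878, limma), and lost its call without the intensity trend at an adjusted p of 0.148 and with the shift of its neighbours removed at 0.218. Its call was kept when R98S 13 was left out and lost when any other clone was (adjusted p from 0.113 to 0.216, limma). Cnep1r1, the regulatory partner of the lipin phosphatase, gave 1239, 1351 and 1183 in WT and 872.5, 791.0 and 866.0 in R98S clones (−0.58 ± 0.11 SE, adjusted p = 0.016, limma). The 30 tested genes nearest to it had a median of −0.49, 19 of them were called, and with their shift removed the difference was −0.10 with an adjusted p of 0.562. Of the 6 chromatin factors that bind the lamina or its partners (Cbx1, Cbx3, Cbx5, Hdac3, Gmcl1 and Rb1), 0 were called in limma. At an unadjusted p under 0.05 the count was 1, and in edgeR and DESeq2 it was 0.

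The nuclear pore complexes, set in the same envelope, were covered by 31 genes, all tested. Only Nup62, of the central channel, was called in limma, and it fell from 3870 ± 126 to 3005 ± 296 (−0.37 ± 0.11 SE, adjusted p = 0.0532). With the shift of its neighbours removed the difference was −0.21 with an adjusted p of 0.21, and without WT 28, WT 29 or R98S 11 it was from 0.117 to 0.183. The list had a median of 0.07 and a share called of 3.2%, against 23.9% of all tested genes. The values ran from −0.37 to 0.28.

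Lamins are intermediate filament proteins, and of 20 other genes of that superfamily 4 passed the filter, Vim, Gfap, Krt10 and Bfsp2. Vim, encoding the vimentin of cytoplasmic filaments, gave 16246, 20619 and 8962 normalized reads in WT and 6005, 2610 and 3241 in R98S clones. It fell by 1.96 on the log2 scale (SE 0.36, adjusted p = 0.0133, limma), with no overlap between the genotypes and with WT clones spread from 8962 to 20619. Bfsp2 had a log2 fold change of 0.64 with an adjusted p of 0.101, and Krt10 one of −0.07.

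The proliferation list had 20 genes, all tested, of which 4 rose (Ccna2, Mcm6, Plk1 and Mcm3) and 1 fell (Ccnb2), that is 5 of 20 called against 23.9% of all tested genes. Ccna2, the cyclin of S phase, rose by 0.62 ± 0.17 SE (adjusted p = 0.044, limma) and the mitotic cyclin gene Ccnb2 fell by 0.68 on the log2 scale (SE 0.19, adjusted p = 0.0468, limma). The list median was 0.18. Without WT 28, WT 29 or R98S 11 the call of Ccna2 was lost (adjusted p from 0.138 to 0.146, limma), and without R98S 11 that of Ccnb2 (0.14). Those of Mcm6 and Mcm3 were lost without the same 3 clones, and that of Plk1 without WT 28, WT 29 or R98S 35. With the shift of their neighbours removed, Plk1 went from 0.44 to 0.07 (adjusted p = 0.708, limma) and Mcm3 from 0.38 to 0.15 (adjusted p = 0.415, limma).

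**Figure D4:**
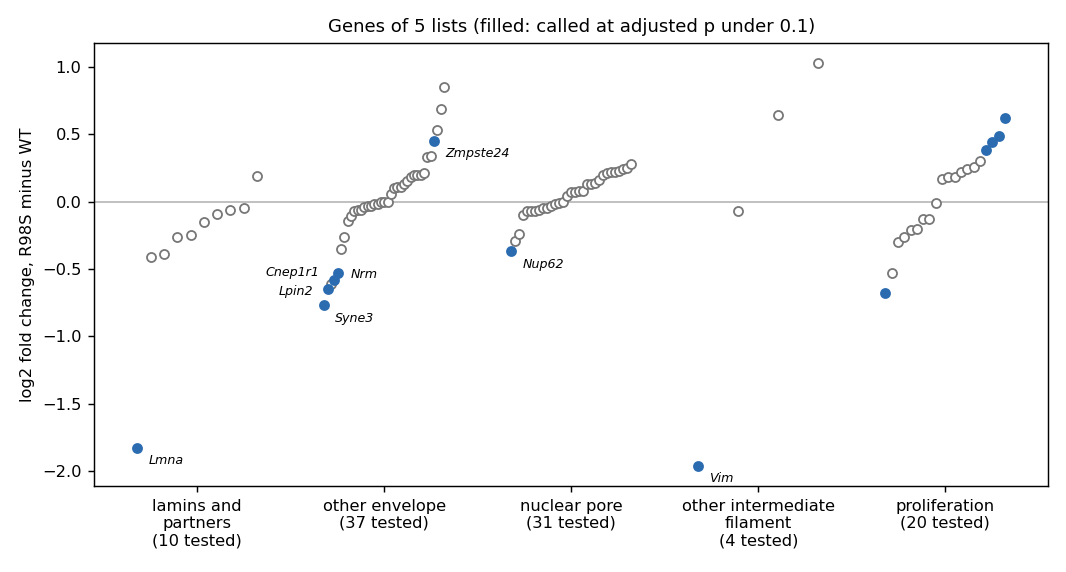
Log2 fold change (R98S minus WT) of each tested gene of the 10 lamins and partners and of 4 other lists, in rank order within a list, with filled points for genes at an adjusted p under 0.1. Lmna and Vim lie at −1.83 and −1.96, and all other points lie between −0.77 and 1.03.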

How the data were processed

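Polyadenylated RNA of 6 Ba/F3 clones was sequenced as strand-specific libraries. The authors removed ribosomal and transfer RNA reads with Bowtie2, aligned the rest to mm10 with TopHat, filtered on mapping quality and counted reads on exons (HTSeq and SAMtools are named in the submitters' processing notes). The values deposited by the authors are a signal per gene, the read count divided by a DESeq2 size factor, and genes are given by symbol. Every value above 0 was a whole multiple of a library's step (tolerance 0.01 of the step), which gave the reads back. The step of WT 36 was so near 1 that this check cannot tell its reads from rounded values. The floor of 3 reads covers counting error only.

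Groups came from the labels, and the 3 clones per genotype were separate monoclonal cultures. Genes with a mean of at least 10 were tested with limma 3.58.1 (R 4.3.3) on log2(normalized count + 1), intensity trend, two-sided, with Benjamini-Hochberg adjustment over 11550 genes and a threshold of 0.1. Count tests on the recovered reads used edgeR 4.0.16 and DESeq2 1.42.0, and the code was tested on simulated data. Regional shifts were the median of the 30 nearest tested genes. Lengths and positions came from GENCODE M21. The members and lists were chosen with earlier results of these data known. All 10 members are named. Also named are called genes of each other list with a mean of at least 100 (up to 4 in each direction) and the 3 genes most correlated with Lmna. Any other list gene was named after its values were seen.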

Additional observations from a re-analysis of the deposited data

How the results depend on the processing

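The log2 fold change of Lmna stayed between −1.85 and −1.79 under the 16 alternatives. Those of Lbr, Emd, Lmnb2, Sun1 and Sun2 stayed below 0, whereas Lmnb1 (−0.19 to 0.11), Tmpo (−0.24 to 0.08), Banf1 (−0.17 to 0.06) and Syne1 (−0.56 to 0.57) crossed 0. The number of the 10 genes called was 1 except with DESeq2 and with regional shifts removed. It was 3 with DESeq2, beside 26.9% of all genes. With regional shifts removed it was 2 (Lmna and Lbr), beside 2768 of 10985 genes. Over all genes 2755 were called, 1722 at a threshold of 0.05, and 1322 (without WT 28) to 3213 (without R98S 13) when a clone was left out. For the other envelope genes (5 called) the count was 2 at 0.05, without the trend and with edgeR, 3 with either other scaling, and 1 to 5 without a clone. It was 4 with no filter and 6 with DESeq2. With regional shifts removed it was again 5, but the genes were Nrm, Syne3, Fnta, Chmp4b and Vps4a, without Zmpste24, Cnep1r1 and Lpin2. For nuclear pore genes (1 called) it was 0 at 0.05 and with no filter, and 2 with upper-quartile scaling and with DESeq2. With regional shifts removed it was 5, all higher in R98S and without Nup62, and without a clone it was 0 to 3. For other intermediate filaments (1 called) it was 2 with a minimum mean of 50, either scaling, DESeq2 or regional shifts removed, and 1 to 2 without a clone. Proliferation genes (5 called) gave 1 to 7 without a clone. The Lmna share of lamin mRNA was 26.2% and 9.7% with coding length. The cause of these moves was not tested, and fewer samples entered when a clone was left out. For the 12 named genes of the other lists, 139 of 192 values kept their call and 53 lost it, and no called direction was reversed. These genes were named because they were called, so a call could only be kept or lost. The filters and the trend could not reverse a direction either. The 160 log2 fold changes of the 10 lamin and partner genes moved by less than their SD between clones. For many of the alternatives this could not be otherwise. The filters and the trend leave a fold change as it was, and leaving out 1 of 3 clones cannot move it by that SD. Nothing is therefore read from that count. No paired analysis was possible, because the clones were separate monoclonal cultures and no label pairs a WT clone with an R98S clone. The 10 genes stood far above the floor of 3 reads in every library.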
